A study of Homo sapiens with 16 samples.

Results

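The 10 genes described here encode proteins of contractile actin filaments and of their anchors: TAGLN, MYL9, CNN2, CNN3, TPM1, TPM2, ACTN1, FLNA, VCL and MYH9. They were chosen by symbol, with earlier results of these data known, and make up 10 of the 26229 genes listed in the count table. All 10 passed the filter of a mean above 10 counts per library, as 14673 genes did. The study asked which genes respond to YAP, the transcriptional co-activator of the Hippo pathway, in keratinocyte-like cells. It used A431, derived from an epidermoid carcinoma, and HaCaT, immortalised human keratinocytes. Per line the RNA-seq libraries were 1 for a control siRNA (siCTRL), 3 for YAP1 siRNA (siYAP), 1 for an empty expression vector and 3 for a vector encoding a constitutively active YAP1 mutant (YAP5SA). The siRNA was delivered in 2 rounds 24 h apart and RNA was taken 48 h after the last round. The time after vector delivery is not given in the sources used here. Each line stands for 1 cell line only, and the labels do not say whether the replicate libraries came from separate cultures. The study's methods call the replicates biological, but each control group has a single library here, so p values measure only the spread between the libraries at hand.

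Non-muscle cells pull on their surroundings through stress fibres, bundles of actin filaments cross-linked by alpha-actinin and filamin and drawn together by myosin II. Tropomyosins and calponins lie along the filaments and set which partners can bind, and vinculin couples the filaments to integrin and cadherin adhesions. YAP is known to become nuclear in cells that spread and pull, and cytoskeletal genes are among the known targets of YAP with its DNA-binding partners of the TEAD family, and of serum response factor (SRF), which binds the CArG box and is co-activated by the MRTF proteins when the pool of free actin falls.

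The libraries held 18.1 M to 46.8 M assigned read pairs, and values below are counts per M assigned pairs (CPM) after TMM scaling. In a single library 3 counts correspond to 0.063 to 0.164 CPM. YAP1 itself checked the labels: it lay at 5.04 to 7.0 CPM with siYAP against 94.3 with siCTRL in A431 and at 21.6 to 23.2 against 254 in HaCaT, and at 1500 to 3250 with YAP5SA against 124 with the empty vector in A431 and at 7550 to 22300 against 423 in HaCaT. EGFR was higher in every A431 library (750 to 1360 CPM) than in any HaCaT library (298 to 557 CPM), and all 10 keratinocyte markers examined had counts in the libraries. Of 5 markers of smooth muscle, the tissue in which TAGLN and MYL9 are most abundant, 4 had counts and CNN1 had 0 in all libraries, and their sum stayed between 0.159 and 1.72 CPM. With 1 control library in each arm, a comparison of 3 against 1 libraries cannot go below p = 0.25 in an exact permutation test, and the adjusted p values below borrow the spread of the 4 groups of 3. A gene was called changed at an FDR under 0.05 with edgeR's quasi-likelihood test and an average log2 CPM above 1.

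**Figure D1:**
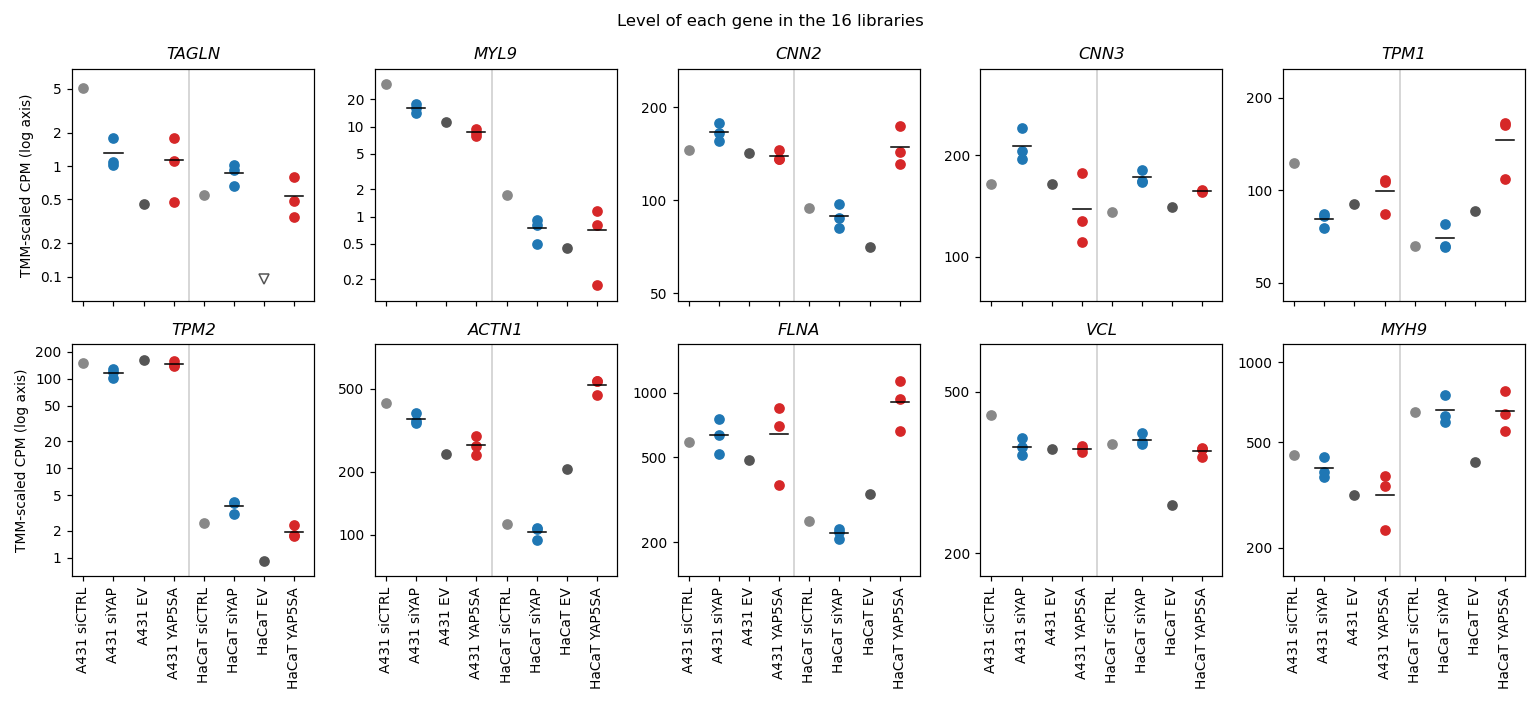
TMM-scaled CPM on a log axis for each gene (1 panel each) in the 8 groups, A431 on the left of each panel and HaCaT on the right. Each filled circle is 1 library, the bar is the mean of 3 libraries, and the open triangle for TAGLN marks the level of 3 counts in the HaCaT empty vector library, which had 0. ACTN1 and FLNA stand highest in the 3 HaCaT YAP5SA libraries of their line, and TPM2 differs between the lines by more than 1 order of magnitude.

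In HaCaT cells most of the 10 genes were higher with YAP5SA than in the single empty vector library. The comparison with siCTRL, given below, differed. ACTN1, FLNA, CNN2, TPM2, TPM1 and VCL were called higher, 6 of 10, and none was called lower. TPM2 passed the limit on average log2 CPM (6.13 over all 16 libraries) through its A431 level. In these HaCaT libraries TPM2 lay at 0.924 to 2.3 CPM. Of all tested genes, 6.99% were called higher and 6.64% lower in the same comparison. The median log2 fold change was 0.92 over the 10 genes, also with TAGLN set to its lower bound, 0.78 without TAGLN, and 0.013 over all tested genes. In A431 cells the same vector gave no call among them, nor in any other gene (0% of 14673), but without A431 YAP5SA replicate 1 the test called 64 genes higher and 23 lower, still with 0 of the 10 among them. DESeq2 on all libraries called 3 genes.

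Among the called genes, the cross-linkers ACTN1 and FLNA had the largest rises in HaCaT cells. ACTN1 encodes alpha-actinin-1, which bundles antiparallel actin filaments, and it measured 205 CPM with the empty vector and 468, 547 and 547 CPM in YAP5SA replicates 1, 2 and 3. The 3 treated libraries lay close together and all above the control, a rise of 2.54-fold (log2 fold change 1.35 ± 0.16 SE, FDR 0.00102). FLNA encodes filamin A, which joins filaments into orthogonal networks and ties them to membrane receptors. FLNA measured 335 CPM with the empty vector and 660, 932 and 1130 CPM with YAP5SA, so replicate 1 was the lowest and replicate 3 the highest. The rise was 2.71-fold (log2 fold change 1.44 ± 0.40, FDR 0.032), with a wider error than that of ACTN1. VCL, which encodes vinculin, measured 263 CPM with the empty vector and 345, 361 and 364 CPM with YAP5SA. The rise of VCL was the smallest of the called genes at 1.36-fold (0.44 ± 0.12, FDR 0.0257).

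The promoters of the genes were searched for short motifs, and only the windows with a CArG box are shown. RefSeq (GRCh38.p14) windows of 300 bases, from 250 before to 50 after an annotated start, were at hand for 8 of the 10 genes, 13 windows in all. TAGLN and MYL9 had none. These positions are not on the build of the count table (hg19), and the sequences serve only as sequence. The CArG box, the SRF motif, was in 3 of the 13 windows, 1 each of CNN2, ACTN1 and FLNA, against 1.29% of 35116 windows. ACTN1 has 4 windows, and only the one shown here held the box. TPM1, TPM2 and VCL, also called higher with YAP5SA in HaCaT cells, had windows without a box, as did CNN3 and MYH9. Counted by gene, 3 of the 8 (37.5%) held it, against 1.6% of the 27305 genes with a window. The TEAD motif, searched as GGAATG on either strand, was in 4 of 13 windows (30.8%, in CNN3, ACTN1, VCL and MYH9) against 14% of all windows, and the AP-1 motif, TGANTCA, in 0 of 13 against 7.71%. A match describes these letters and is not a measured binding site. The 250 bases before the start of these 3 windows are shown 5′ to 3′ on the strand of the gene, with CArG boxes in capitals and, in ACTN1, the TEAD motif CATTCC in capitals too.

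CNN2 promoter, chr19:1026358-1026607, plus strand, box starting 89 bases before the start: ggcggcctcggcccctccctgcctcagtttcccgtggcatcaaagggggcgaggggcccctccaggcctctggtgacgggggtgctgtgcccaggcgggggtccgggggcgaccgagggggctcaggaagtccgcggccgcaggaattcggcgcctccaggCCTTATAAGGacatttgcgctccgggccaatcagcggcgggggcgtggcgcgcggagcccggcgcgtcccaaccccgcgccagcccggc
ACTN1 promoter, chr14:68977567-68977816, minus strand, box starting 171 bases before the start and TEAD motif 154 bases before it: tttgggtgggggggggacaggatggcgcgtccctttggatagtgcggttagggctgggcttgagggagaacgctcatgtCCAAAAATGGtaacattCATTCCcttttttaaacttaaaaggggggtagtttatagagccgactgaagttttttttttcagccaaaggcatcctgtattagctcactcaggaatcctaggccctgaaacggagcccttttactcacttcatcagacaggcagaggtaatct
FLNA promoter, chrX:154374635-154374884, minus strand, box starting 94 bases before the start: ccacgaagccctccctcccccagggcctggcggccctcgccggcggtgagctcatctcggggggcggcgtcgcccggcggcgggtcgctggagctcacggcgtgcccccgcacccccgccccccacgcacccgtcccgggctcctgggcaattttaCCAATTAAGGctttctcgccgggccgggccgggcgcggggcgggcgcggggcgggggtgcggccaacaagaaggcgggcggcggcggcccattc

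The boxes read CCTTATAAGG in CNN2, CCAAAAATGG in ACTN1 and CCAATTAAGG in FLNA. Of the 73 other actin genes listed for this work, 63 had a window and 7 (11.1%) held a box: ACTA1, ACTC1, ACTG1, ACTG2, FHL2, SRF and TPM4. Of these, only SRF was called higher with YAP5SA in HaCaT cells. TPM4 measured 615 CPM with the empty vector and a mean of 500 CPM with YAP5SA there. A link between the box and the change of a gene was not tested.

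The genes that coat the filament split. CNN2 encodes calponin 2, an actin-binding protein that restrains myosin, and CNN2 measured 70.7 CPM with the empty vector and 143, 131 and 174 CPM with YAP5SA in HaCaT cells. All 3 treated libraries were above the control, by 2.11-fold (log2 fold change 1.08 ± 0.17, FDR 0.00437). CNN3, the acidic calponin, measured 140 CPM with the empty vector and 158, 157 and 156 CPM with YAP5SA. That was higher in each library but by 1.13-fold (0.17 ± 0.20, FDR 0.594), which is within the fitted error. TPM1 encodes a tropomyosin found in stress fibres, and TPM1 measured 85.3 CPM with the empty vector and 109, 166 and 163 CPM with YAP5SA, a rise of 1.72-fold (0.78 ± 0.23, FDR 0.0371). Replicate 1 was again the lowest. TPM2, another stress fibre tropomyosin, was near the bottom of its range in this line, with 0.924 CPM with the empty vector and 1.79, 2.30 and 1.73 CPM with YAP5SA (log2 fold change 1.06 ± 0.27, FDR 0.024).

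The myosin genes and TAGLN did not reach a call in HaCaT cells. MYH9 encodes the heavy chain of non-muscle myosin IIA, the motor of the stress fibre, and MYH9 measured 420 CPM with the empty vector and 550, 639 and 781 CPM with YAP5SA. Every treated library was higher, by 1.56-fold on average, and the adjusted p stood above the limit (log2 fold change 0.64 ± 0.25, FDR 0.10). The labels give replicate numbers but no pairing of libraries across the lines, and a pairing of the YAP5SA libraries was inferred from these data. With the number as a replicate block in those libraries, chosen after seeing the data, MYH9 passed at 0.63 with an FDR of 0.0252. That fit called 9.89% of tested genes higher. Its pairing was read from the same counts, so it gives no separate evidence for a call. MYH9 was also called with the block in all treated libraries (FDR 0.0339) and with DESeq2 (FDR 0.0466). Those fits called 7.67% and 10.3% of tested genes higher. It was not called with the likelihood ratio test or with RLE size factors. MYL9, a regulatory light chain of myosin II, was barely present, at 0.446 CPM with the empty vector and 1.15, 0.172 and 0.816 CPM with YAP5SA. These treated libraries lay on either side of the control (0.69 ± 0.70, FDR 0.526). TAGLN encodes transgelin (SM22), an actin-binding protein of smooth muscle and of stressed fibroblasts. TAGLN had 0 counts with the empty vector and 19, 12 and 31 counts with YAP5SA, or 0.487, 0.345 and 0.791 CPM. Against the 3 counts that a 0 allows in the control library, the mean was at least 5.66-fold higher and the lowest treated library at least 3.61-fold higher, with counting error alone considered. TAGLN had an FDR of 0.0215 but an average log2 CPM of 0.16, under the limit, and was not called.

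**Figure D2:**
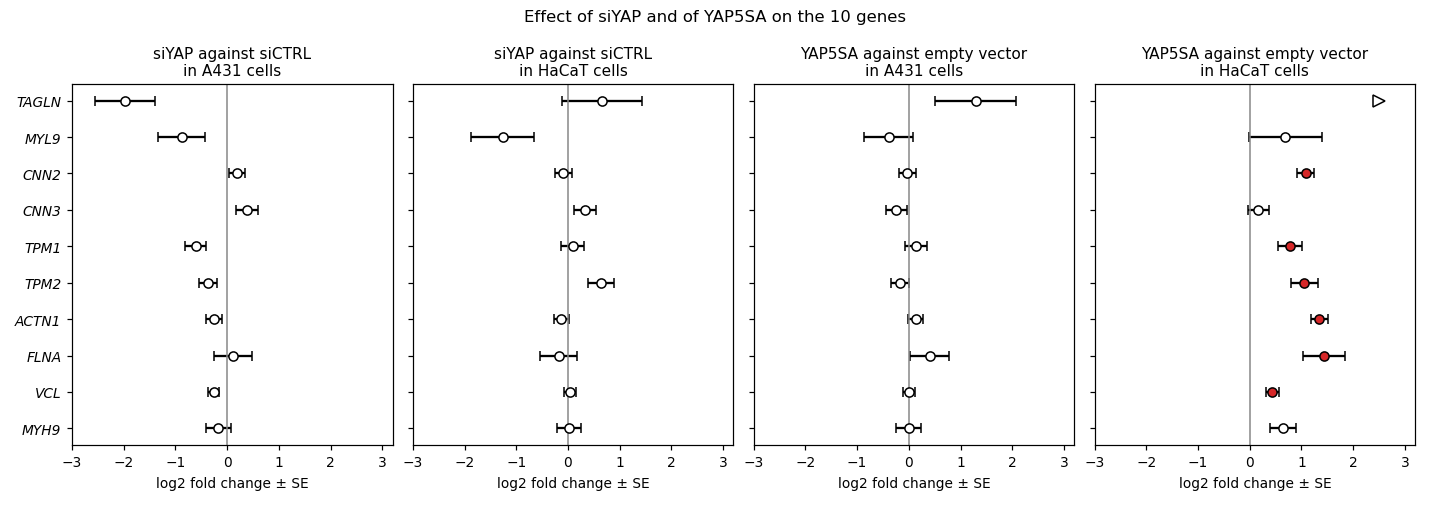
Log2 fold change with its SE (bars) for each gene in the 4 comparisons within a line, from edgeR. Red points were called and white points were not, and the open triangle in the last panel is the lower bound for TAGLN. The 6 red points are all in HaCaT cells with YAP5SA, at log2 fold changes of 0.44 to 1.44, and no point is red in the other 3 panels.

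The HaCaT values were also set against the other control of the line. The 2 control libraries of HaCaT cells, siCTRL and empty vector, differed by more than 2-fold in 27.6% of tested genes, against 4.28% in A431 cells. They differ in what was delivered, and that cannot be told apart from differences between cultures. The sum of 7 fibroblast markers moved with the arm too, at 21.5 to 27.9 CPM in the HaCaT siRNA libraries and 0.669 to 1.90 CPM in the vector libraries. So did CDH5, an endothelial cadherin, with 51.8 CPM in siCTRL and 0.127 CPM in the empty vector library. The only other endothelial marker examined, PECAM1, added little, as both summed to 52.1 CPM with siCTRL. In A431 cells the fibroblast sum was 10.2 CPM with siCTRL and 5.46 CPM with the empty vector. The endothelial sum there was 32.5 and 3.58 CPM. The part of these markers in the values of the 10 genes was not tested.

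Set against the siCTRL library instead, the HaCaT YAP5SA libraries were higher for ACTN1, FLNA, CNN2, TPM1 and CNN3 and not for VCL, MYH9, TPM2, MYL9 and TAGLN. ACTN1 lay at 112 CPM with siCTRL, so the YAP5SA mean was 4.64 times siCTRL and 2.54 times the empty vector. FLNA lay at 250 CPM with siCTRL, and its YAP5SA mean was 3.63 times as high. For CNN2 (94.3 CPM with siCTRL) the ratio was 1.58, and for TPM1 (65.7 CPM) 2.23. VCL, at 372 CPM with siCTRL, was not higher with YAP5SA, with a ratio of 0.959. MYH9 had a ratio of 1.02, TAGLN of 0.99 and TPM2 of 0.79, and MYL9 lay at 0.408 times siCTRL. The ratio for CNN3 was 1.15. TPM2 measured 2.46 CPM with siCTRL, above all 3 YAP5SA libraries. With both controls pooled in the fit, TPM2 (log2 fold change 0.26, FDR 0.587) and VCL (0.17, FDR 0.472) lost their calls. All 3 YAP5SA libraries lay above both controls for CNN2, CNN3, TPM1, ACTN1 and FLNA, 5 of 10, as they did for 14.9% of tested genes, and below both for 0 of 10, against 16%. The lowest YAP5SA library was 2.28 times the higher control for ACTN1, 1.97 times for FLNA, 1.39 times for CNN2, 1.28 times for TPM1 and 1.12 times for CNN3.

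**Figure D3:**
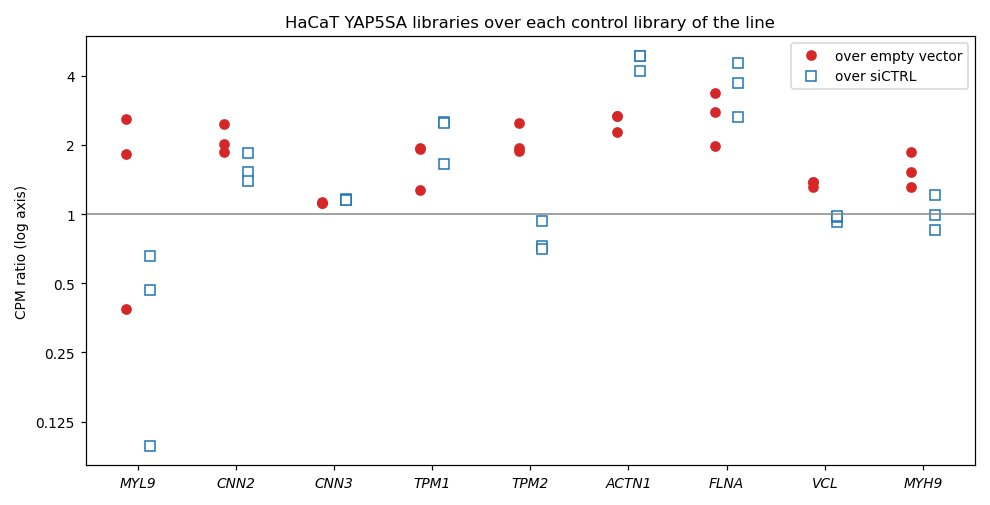
Ratio of each HaCaT YAP5SA library to the empty vector library (red circles) and to the siCTRL library (blue squares) of HaCaT cells, on a log axis with a line at 1; TAGLN is left out because its empty vector library had 0 counts. ACTN1, FLNA, CNN2, TPM1 and CNN3 lie above 1 against either control, and VCL, MYH9, TPM2 and MYL9 have at least 1 library below 1 against siCTRL.

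The calls of FLNA, TPM1 and VCL were also lost when HaCaT YAP5SA replicate 3 was left out. Their FDR rose to 0.0707, 0.0839 and 0.0569, which left 3 genes called. The log2 fold changes were then 1.25, 0.69 and 0.43. That fit called 4.25% of all tested genes higher, against 6.99% with all libraries. TPM1 also lost its call without replicate 2 (0.68, FDR 0.0569), where 8.56% of tested genes were called higher. VCL lost its call with no filter on low counts (0.44, FDR 0.0572), where 4.23% were.

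In A431 cells with YAP5SA no gene of the 10 was called and none had an unadjusted p under 0.05. Their median log2 fold change was 0, against 0.02 over all tested genes. ACTN1 measured 244 CPM with the empty vector and 241, 296 and 267 CPM with YAP5SA (log2 fold change 0.13 ± 0.15, FDR 0.874). FLNA measured 486 CPM with the empty vector and 370, 852 and 695 CPM with YAP5SA, with replicate 1 below and the others above the control (0.40 ± 0.37, FDR 0.86). Replicate 1 was also the lowest of the 3 for MYH9 (234 CPM, against 373 and 341 in the others and 316 with the empty vector) and for YAP1 itself (1500 CPM). It stood further from its group than other A431 libraries, with a root mean square log2 deviation of 0.262 against 0.128 to 0.179. TPM1 measured 90 CPM with the empty vector and 83.9, 108 and 106 CPM with YAP5SA. CNN3 measured 164 and then 177, 111 and 128 CPM, and CNN2 142 and then 136, 146 and 136 CPM. TPM2 measured 164 and then 156, 144 and 138 CPM, VCL 362 and then 363, 355 and 367 CPM, and the fitted changes of these 5 genes lay between -0.24 and 0.14 on the log2 scale. MYL9 was lower in all 3 YAP5SA libraries (9.47, 8.42 and 7.92 CPM) than in either A431 control (11.3 and 29.4 CPM), as were 11.6% of tested genes, and its fitted change of -0.39 ± 0.47 did not pass (FDR 0.884). None of the 10 lay above both A431 controls in all 3 libraries, against 14.2% of tested genes. TAGLN measured 0.459 CPM, or 10 counts, with the empty vector and 0.473, 1.80 and 1.11 CPM with YAP5SA (1.29 ± 0.78, FDR 0.813).

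The effect of YAP5SA was tested for a difference between the lines, as the HaCaT change minus the A431 change. For all 10 genes the difference was above 0, with a median of 1.06 against -0.022 over all tested genes. An unadjusted p under 0.05 was held by 5 of the 10, and the share of all tested genes at that limit was not counted. None was called (0.0886% of tested genes were). ACTN1 came nearest, at 1.21 ± 0.21 (FDR 0.0523), then CNN2 at 1.11 ± 0.22 (FDR 0.0533) and TPM2 at 1.23 ± 0.32 (FDR 0.0719). FLNA differed by 1.04 ± 0.52 (FDR 0.254) and VCL by 0.44 ± 0.16 (FDR 0.137). With the replicate block in the YAP5SA libraries, ACTN1 (FDR 0.0176) and CNN2 (FDR 0.0334) passed, so the call for this pair of genes turned on the fit. That fit called 776 genes in all (5.29%). Leaving out A431 replicate 1 also gave calls for ACTN1 (FDR 0.014), CNN2 (FDR 0.0257) and TPM2 (FDR 0.0426), among 876 genes in all (5.97%). ACTN1 and CNN2 passed too without HaCaT replicate 1 (4.18% of tested genes called) or without HaCaT replicate 2 (3.39%). The level of the mutant also differed between the lines, with YAP1 at 7550 to 22300 CPM in HaCaT and 1500 to 3250 CPM in A431 cells, and its part in the difference was not tested.

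Averaged over the lines, YAP5SA gave a call for ACTN1 (log2 fold change 0.74 ± 0.11, FDR 0.00826) and CNN2 (0.52 ± 0.12, FDR 0.041), 2 of 10, with 1.38% of tested genes called higher. With the replicate block in the YAP5SA libraries, FLNA (0.87, FDR 0.00817) and TPM1 (0.44, FDR 0.017) were called as well, in a fit that called 5.06% of tested genes higher. These averages hold large HaCaT values and A431 values near 0. The additive model of line and treatment called 0 of the 10, and only 0.0204% of all tested genes. The call of CNN2 was lost without A431 replicate 2 (0.51, FDR 0.0836), A431 replicate 3 (0.53, FDR 0.0809) or HaCaT replicate 3 (0.46, FDR 0.0555). Those fits called 0.279%, 0.225% and 0.709% of tested genes higher. Without HaCaT replicate 1 FLNA (FDR 0.0323) and TPM1 (FDR 0.0167) were called, with 4.89% of tested genes called higher.

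Knockdown of YAP1 gave no call among the 10 genes in either line. Of all tested genes, 5.6% were called in either direction in A431 cells, 5.67% in HaCaT cells and 13% over both lines. An unadjusted p under 0.05 was held by 4 of the 10 in A431 cells, 1 in HaCaT cells and 2 over both lines. The share of all tested genes at that looser limit was not counted, so these counts have no background to be set against. The median log2 fold change of the 10 genes was -0.26 in A431 and 0.03 in HaCaT cells, against 0.029 and 0.028 over all tested genes.

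The 2 low-level smooth muscle genes had the largest values with siYAP. In A431 cells TAGLN measured 5.09 CPM with siCTRL against 1.09, 1.03 and 1.80 CPM with siYAP, from counts of 104 and 52, 30 and 36. All 3 were lower than siCTRL, at a log2 fold change of -1.98 ± 0.58 (FDR 0.0658). The siCTRL library was itself 11.1 times the A431 empty vector library, so the siYAP values lay between the controls of the line. In HaCaT cells TAGLN lay above siCTRL, with 0.546 CPM in siCTRL and 0.929, 1.02 and 0.661 CPM with siYAP (0.66 ± 0.78, FDR 0.705). MYL9 measured 29.4 CPM with siCTRL against 15.9, 14.2 and 18 CPM with siYAP in A431 cells, and 1.75 CPM and then 0.813, 0.923 and 0.496 CPM in HaCaT cells. The 6 siYAP libraries were all lower than the siCTRL library of their line, with a log2 fold change of -0.88 ± 0.45 (FDR 0.28) in A431, -1.26 ± 0.61 (FDR 0.274) in HaCaT and -1.07 ± 0.38 (FDR 0.0825) over both. In both lines the MYL9 siYAP libraries stayed above the empty vector library (11.3 and 0.446 CPM). CDH5 was lower with siYAP in the same libraries, at 15.8 to 18.9 CPM against 31.1 CPM with siCTRL in A431 and at 12.1 to 13.7 CPM against 51.8 CPM in HaCaT cells, and its part in the MYL9 values was not tested.

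The values of the filament-coating genes with siYAP differed in sign between genes and lines, and none was called. TPM1 measured 123 CPM with siCTRL against 82.5, 83.4 and 75.4 CPM with siYAP in A431 cells, a log2 fold change of -0.61 ± 0.21 (FDR 0.106). In HaCaT cells TPM1 measured 65.7 CPM and then 65.3, 77.8 and 66.1 CPM (0.09 ± 0.22). TPM2 measured 151 CPM with siCTRL against 103, 127 and 119 CPM with siYAP in A431 cells (-0.37 ± 0.17, FDR 0.211). It was the reverse in HaCaT cells, where TPM2 measured 2.46 CPM with siCTRL against 4.18, 3.11 and 4.13 CPM with siYAP (0.64 ± 0.25, FDR 0.158). CNN3 was higher in all 6 siYAP libraries than in siCTRL, at 240, 206 and 194 CPM against 164 CPM in A431 and at 168, 181 and 166 CPM against 136 CPM in HaCaT cells. Over both lines the change of CNN3 was 0.36 ± 0.15 (FDR 0.123). CNN2 measured 146 CPM and then 156, 165 and 178 CPM in A431 and 94.3 CPM and then 81.4, 97.5 and 87.7 CPM in HaCaT cells, both within 0.19 of the control on the log2 scale.

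The cross-linkers and MYH9 stayed near their controls with siYAP. ACTN1 measured 426 CPM with siCTRL against 351, 341 and 383 CPM with siYAP in A431, and 112 CPM and then 94.5, 108 and 106 CPM in HaCaT cells, for -0.19 ± 0.10 over both lines (FDR 0.258). FLNA measured 590 CPM and then 519, 631 and 757 CPM in A431, and 250 CPM and then 207, 224 and 231 CPM in HaCaT cells. VCL measured 438 CPM and then 384, 349 and 365 CPM in A431 (-0.26 ± 0.11, FDR 0.19) and 372 CPM and then 376, 372 and 396 CPM in HaCaT cells. MYH9 measured 447 CPM and then 369, 385 and 440 CPM in A431, and 646 CPM and then 595, 626 and 751 CPM in HaCaT cells. None of these changes was called.

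Against both controls of the line, all 3 A431 siYAP libraries were above for CNN2 and CNN3 (22.2% of tested genes were) and below for TPM1 and TPM2 (20.9%). All 3 HaCaT siYAP libraries were above for TAGLN, CNN3 and TPM2 (23.1%) and below for ACTN1 and FLNA (20.8%). The difference of the siYAP effect between the lines gave 0 calls among the 10 (0.17% of tested genes). An unadjusted p under 0.05 was held by 3: TPM2 at 1.01 ± 0.30 (FDR 0.2), TAGLN at 2.63 ± 0.99 (FDR 0.331) and TPM1 at 0.70 ± 0.31 (FDR 0.406). The share of all tested genes at that limit was not counted here either.

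Other genes of the actin machinery were counted from 6 lists of 73 genes, 67 of them tested. In HaCaT cells with YAP5SA 7 were called higher and 6 lower, against 6.99% and 6.64% of all tested genes. Cross-linkers and membrane linkers held 4 of the 7 rises and no fall, among 20 genes. PDLIM7, a PDZ and LIM protein of stress fibres, rose by 1.5 ± 0.32 (FDR 0.012), and FSCN1, which encodes the filament bundler fascin, by 1.39 ± 0.23 (FDR 0.00494). Of the MRTF and SRF genes, SRF itself was called, from 17.8 CPM to between 25.1 and 29.1 CPM (0.63 ± 0.15, FDR 0.0197), although its siCTRL library held 27.9 CPM. The falls lay in 1 list. Of 29 tested genes of filament assembly and turnover, 2 were called higher and 6 lower, with ACTR2, a subunit of the Arp2/3 nucleator of branched filaments, at -0.79 ± 0.16 (FDR 0.0101) and ARPC5, another subunit, at -0.59 ± 0.13 (FDR 0.0139). These falls are against the empty vector library (765 CPM for ACTR2 and 481 CPM for ARPC5). Against siCTRL, the YAP5SA libraries lay on either side for ACTR2 (366 to 521 CPM against 419 CPM) and all above for ARPC5 (298 to 348 CPM against 209 CPM). FMNL2, a formin, rose by 0.57 ± 0.15 (FDR 0.0259) and ARPC1B by 0.46 ± 0.13 (FDR 0.0358). No actin, tropomyosin or myosin gene of the other lists was called. In A431 cells 0 of the 67 were called, as was 0% of all tested genes. Over both lines 1 rose, FSCN1 (0.73 ± 0.15, FDR 0.0368), and 0 fell, against 1.38% and 0.661% of tested genes. In A431 cells FSCN1 lay at 113 to 143 CPM with YAP5SA against 121 CPM with the empty vector.

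**Figure D4:**
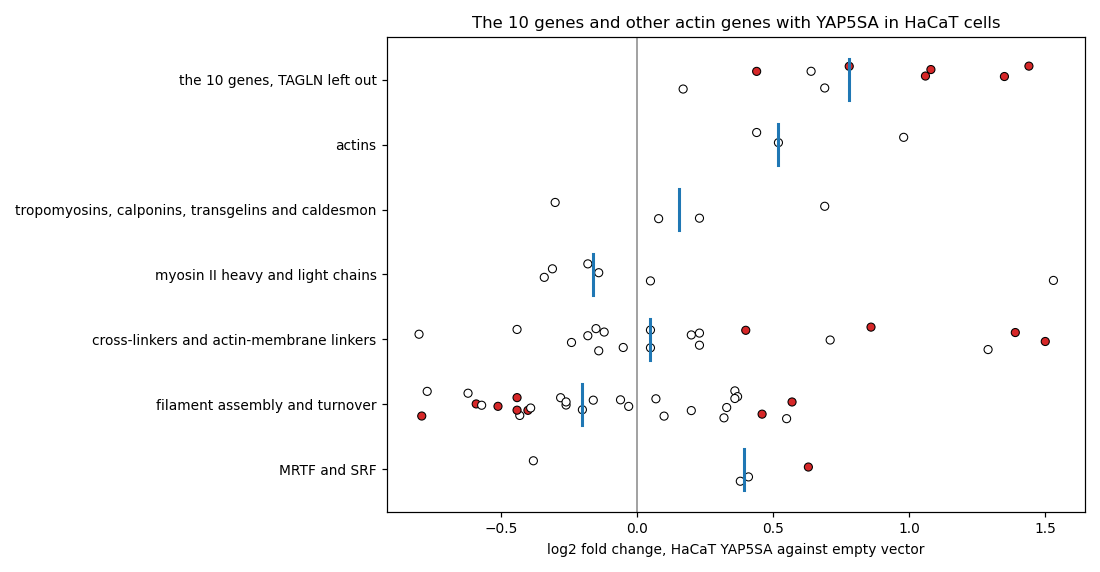
Log2 fold change of YAP5SA against the empty vector in HaCaT cells for the 10 genes without TAGLN and for 6 lists of other actin genes, with 1 point per gene, red where called, and a blue bar at the median of the points shown. TAGLN, FLNC and TAGLN3 are left out because the control library held at most 3 counts of each. Red points lie to the right for the 10 genes and the cross-linkers, and mostly to the left for filament assembly and turnover.

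With siYAP, ACTG1, which encodes cytoplasmic gamma-actin, was the only one of the 67 that was called in each line on its own. ACTG1 measured 1860 CPM with siCTRL and 881 to 983 CPM with siYAP in A431 cells, and 1440 CPM and then 655 to 728 CPM in HaCaT cells. ACTG1 fell by 0.97 ± 0.15 on the log2 scale (FDR 0.00393) in A431 and by 1.05 ± 0.15 (FDR 0.00163) in HaCaT cells, and all siYAP libraries lay below both controls of their line. Of the 67 genes, 0 were called higher and 4 lower in A431, where CTTN, which encodes the branched-actin regulator cortactin, had the largest fall (-1.49 ± 0.28, FDR 0.0103), followed in size by ACTG1, TPM4, a further tropomyosin (-0.80 ± 0.15, FDR 0.00877), and CFL2, a cofilin (-0.64 ± 0.17, FDR 0.0424). In HaCaT cells 3 were called higher and 1 lower, with MYH10, the heavy chain of myosin IIB (1.11 ± 0.24, FDR 0.0177), ARPC1A (1.10 ± 0.16, FDR 0.0016) and DAAM1, a formin (0.82 ± 0.13, FDR 0.00258), as the rises. MYH10 with siYAP (44.1 to 51.9 CPM) lay above siCTRL (22.2 CPM) and the empty vector (32.5 CPM). ARPC1A (110 to 122 CPM) lay above siCTRL (54.1 CPM) and on either side of the empty vector (119 CPM). Of all tested genes, 1.81% were called higher and 3.78% lower with siYAP in A431 cells, and 2.37% and 3.3% in HaCaT cells. Over both lines 5 were called higher and 6 lower, against 5.3% and 7.68% of tested genes. ACTG1 fell by 1.01 ± 0.11 (FDR 0.000125) and LCP1, the bundler L-plastin, by 1.42 ± 0.42 (FDR 0.042). LCP1 measured 30.9 CPM with siCTRL and 24.8 to 30.3 CPM with siYAP in A431 cells. In HaCaT cells LCP1 rested on few counts, at 0.765 CPM with siCTRL and 0.0661 to 0.194 CPM with siYAP. FSCN1, called higher over both lines with YAP5SA, was called higher over both lines with siYAP too (0.65 ± 0.15, FDR 0.0159), against siCTRL. With siYAP FSCN1 lay at 89 to 121 CPM in A431 cells, against 59.8 CPM with siCTRL and 121 CPM with the empty vector. In HaCaT cells it lay at 51.2 to 57.7 CPM, between siCTRL (38.6 CPM) and the empty vector (62.6 CPM). CTTN, CFL2 and TPM4 were among the other falls, at -0.92 to -0.41, and ARPC1A, DAAM1, MYH10 and MSN the other rises, at 0.52 to 0.76. MSN in HaCaT cells lay at 65.1 to 108 CPM with siYAP, against 55.4 CPM with siCTRL and 363 CPM with the empty vector. No difference of an effect between the lines was called in these lists.

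Most of the 10 genes differed in level between the control libraries of the lines, which had received control siRNA or the empty vector. In the 4 control libraries 7 were called higher in A431 and 0 lower, with 24.5% of tested genes called higher. TPM2 measured 151 and 164 CPM in the A431 controls and 2.46 and 0.924 CPM in the HaCaT controls, which do not overlap, a difference of 104-fold (log2 6.70 ± 0.21, FDR 4.16e-10). MYL9 measured 29.4 and 11.3 CPM in A431 and 1.75 and 0.446 CPM in HaCaT controls, or 20.5-fold (log2 4.36 ± 0.51, FDR 1.47e-05). ACTN1 (log2 1.09 ± 0.13), FLNA (0.89 ± 0.32), CNN2 (0.82 ± 0.14), TPM1 (0.49 ± 0.19) and VCL (0.35 ± 0.10) were higher by smaller amounts. CNN3 (0.25 ± 0.17, FDR 0.251) and MYH9 (-0.47 ± 0.21, FDR 0.0779) were not called, and MYH9 was the only one with a value below 0. TAGLN measured 5.09 and 0.459 CPM in A431 and 0.546 and 0 CPM in HaCaT controls, so the ranges overlap, and with an average log2 CPM of 0.16 it was under the limit for a call (FDR 0.00125). From the empty vector libraries alone 4 remained called, and ACTN1 (0.25), FLNA (0.54) and TPM1 (0.08) were no longer among them, while from the siCTRL libraries alone VCL (0.24, FDR 0.188) was not, and with RLE size factors TPM1 was not (FDR 0.0573). Of the 67 other actin genes, 27 were called higher in A431 and 16 lower, against 24.5% and 21.1% of all tested genes.

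Per length of transcript, so that genes can be compared with each other, the order in A431 siCTRL cells was TPM1 (117 CPM per kb), ACTN1 (113), TPM2 (108), VCL (79.9), CNN3 (75.6), FLNA (69.3), CNN2 (67.1), MYH9 (59.1), MYL9 (10.4) and TAGLN (2.35). In HaCaT siCTRL cells MYH9 was first (85.5 CPM per kb), then VCL (67.7), CNN3 (62.9), TPM1 (62.6), CNN2 (43.3), ACTN1 (29.7), FLNA (29.4), TPM2 (1.77), MYL9 (0.62) and TAGLN (0.252). Each is 1 library, so neighbours in these orders cannot be told apart, and the GENCODE principal transcript was used for length, not the isoforms these cells make. Tropomyosin genes, calponin genes, alpha-actinin and filamin genes, and MYL9 with MYL12A and MYL12B, share sequence with close relatives, and the counts assign such shared reads by estimate.

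Over the 16 libraries, with each gene centred on its line's mean, the genes followed each other unevenly. MYH9 (Pearson r = 0.71) and CNN2 (0.68) were most like the mean of the other 9, and CNN3 (0.09) and TPM2 (-0.10) least. The genes outside the set with the profile nearest to its mean were CDC42EP3 (r = 0.905), TRIO (0.894), CRIM1 (0.889), SH3BP4 (0.874) and MTCL1 (0.871). The 16 points share lines, arms and libraries, and these values are a description.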

How the data were processed

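Gene expression of A431 and HaCaT cells was measured by RNA-seq in 16 libraries of 8 groups, with groups and replicate numbers from the sample labels. The authors deposited 1 table of RSEM estimated counts of 26229 genes against RefSeq models. The submitters' processing notes name RSEM 1.2.11 and hg19, and the paper's methods another RSEM version. The estimated counts were rounded, and genes with a mean above 10 counts kept. In R 4.3.3 with edgeR 4.0.16, TMM factors (0.9135 to 1.0741) and the quasi-likelihood test were applied to 1 model of 8 groups with 8 residual degrees of freedom, with Benjamini-Hochberg adjustment over all 14673 tested genes of a comparison. SE is the log2 fold change over the root of F. The script was tested on simulated data. CPM and figures used Python 3.11.15, numpy 2.4.6, pandas 2.3.3 and matplotlib 3.10.9; alternatives used DESeq2 1.42.0, limma 3.58.1, RLE factors, other filters, tests, models and controls, and left out each treated library in turn.

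Deviations of same-numbered libraries from their group means correlated at 0.373, 0.144 and 0.154 between the YAP5SA groups of the lines, which were taken as paired, and at 0.005 to 0.247 between the siYAP groups, which were not. Between A431 siYAP and HaCaT YAP5SA they correlated at -0.02 to 0.144. These ranges overlap, so the correlations alone do not establish a pairing. Each member was named, with, from each list of other actin genes, up to 2 called rises and 2 called falls per comparison (counts only between the control libraries), and the 5 genes nearest in profile, with profiles on log2(CPM + 1). A further list of genes is not reported here. The genes and lists were chosen with earlier results of these data known.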

Additional observations from a re-analysis of the deposited data

Results flagged for a closer look

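In 3 cases every treated library of the lines moved in opposite directions. TAGLN was lower than siCTRL in all 3 siYAP libraries of A431 cells and higher in all 3 of HaCaT cells, with a difference of the siYAP effect (HaCaT minus A431) of 2.63 ± 0.99 on the log2 scale. TPM2 did the same with siYAP, with a difference of 1.01 ± 0.30, and was lower than the empty vector in all 3 A431 and higher in all 3 HaCaT libraries with YAP5SA, with a difference of 1.23 ± 0.32. The test of the difference did not pass in edgeR (FDR 0.331, 0.2 and 0.0719). TAGLN was under 2 CPM in every library but 1, and TPM2 under 5 CPM in every HaCaT library.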

How the results depend on the processing

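Counts of called genes among the 10 are compared with those in the report. In HaCaT cells with YAP5SA (6 called) 3 were called with each line fitted alone, where TPM1, TPM2 and VCL lost their calls, and 3 to 7 when a replicate was left out. Those fits called 2.81%, and 4.25% to 9.08%, of all tested genes higher, against 6.99% in the report. Over both lines with YAP5SA (2 called), 0 were called in the additive model and 1 to 4 when a replicate was left out. Those fits called 0.00682%, and 0.225% to 4.89%, of tested genes higher, against 1.38% in the report. The difference of the YAP5SA effect between the lines (0 called) gave 4 with DESeq2, 3 with the likelihood ratio test, 2 with RLE size factors, 2 with more than 10 counts in every library, 1 with no filter and 0 to 3 when a replicate was left out. Those fits called 943, 778, 108, 217 and 35 genes in all, in the same order, against 13 in the report. With a replicate left out, 0.00682% to 5.97% of tested genes were called. With siYAP (0 called) 2 were called in A431 cells with each line fitted alone (MYL9 and TPM1, both lower), 1 in HaCaT cells with both controls together (TPM2, higher), and 1 over both lines with DESeq2 and with the likelihood ratio test (MYL9, lower). These 4 fits called 6.93%, 20%, 16.9% and 16.2% of tested genes in either direction, in the same order. Between the lines' controls (7 called) 4 were called from the empty vector libraries alone, where 40.4% of tested genes were called, against 45.6% in the report. The cause of these changes was not tested.

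The replicate block in all treated libraries gave 7 calls in HaCaT cells with YAP5SA, 3 over both lines, 1 for the difference between the lines, 8 between the lines' controls, and 0 in each siYAP comparison and in A431 cells with YAP5SA. Of all tested genes, 15.2%, 4.16%, 0.143% and 46.7% were called in the first 4 of these comparisons. The block in the YAP5SA libraries alone, chosen after seeing the data, gave 7, 4 and 2 for the first 3 of these comparisons. There 21.5%, 9.39% and 5.29% of tested genes were called.

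Only log2 fold changes that were not called changed sign, in 31 values. With both controls together these were TAGLN with siYAP over both lines (0.37) and with YAP5SA in A431 (-1.29) and over both lines (-0.06), MYL9 with YAP5SA in HaCaT (-0.53) and over both lines (-0.89), CNN2 with siYAP in HaCaT (0.11), TPM1 with siYAP in HaCaT (-0.11) and with YAP5SA in A431 (-0.10), ACTN1 in A431 with siYAP (0.10) and YAP5SA (-0.32) and in the difference of the siYAP effect (-0.72), VCL with siYAP over both lines (0.07), and MYH9 with siYAP in A431 (0.06) and over both lines (0.18) and with YAP5SA in A431 (-0.27). When a replicate was left out they were, with YAP5SA over both lines, MYL9 (-0.10) and CNN3 (-0.14 to 0.03), CNN3 in the difference of the siYAP effect (0.06), FLNA with siYAP in A431 (-0.04 to 0.21) and over both lines (0.01), VCL with YAP5SA in A431 (0.01), and MYH9 with siYAP in HaCaT (-0.09 to 0.09) and with YAP5SA in A431 (-0.13 and -0.06). The others were near 0: FLNA with siYAP over both lines in the additive model (0), VCL with YAP5SA in A431 without a filter (0.03), and MYH9 with YAP5SA in A431 with DESeq2 or RLE (-0.01), a replicate block (-0.02) and more than 10 counts in every library (-0.04).

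Depth limits TAGLN and the HaCaT values of MYL9, which rest on few counts per library. With 1 control library in each arm, the spread between control cultures was not measured, and an absent call does not show that a gene did not change.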
